A study of Mus musculus with 3 samples.

Results

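The barcodes described here were mature-type plasmacytoid dendritic cells that carried mRNA of the chemokine receptor Ccr9. A barcode was taken if it held at least 3 UMIs (unique molecular identifiers, 1 per captured mRNA molecule) of Siglech and at least 1 UMI of Ccr9. It also had to hold at most 1 UMI of the cycling genes Mki67 and Top2a together, and UMIs of fewer than 2 of Apod, Lefty1, Klra17, Slamf9, Klrk1 and Kdr, called the Apod set below. Of 29276 deposited barcodes, 28903 had 1000 or more UMIs, 500 or more genes and no more than 10% of UMIs from mitochondrial genes, and 2739 of these met the rule. The 28903 are called kept barcodes. These members were 1176 barcodes of the control library, 610 of the 50 µM glutamine library and 953 of the DON library. The members were thus chosen by the measured UMI counts of the 10 genes in the rule, whose levels are given as description only.

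Plasmacytoid dendritic cells are made in the bone marrow and release large amounts of type I interferon when Tlr7 or Tlr9 in their endosomes meets viral nucleic acid. The basic helix-loop-helix factor Tcf4 sets and keeps their identity, together with Irf8, Spib, Runx2, Bcl11a and Zeb2, whereas Id2 opposes Tcf4 and favours conventional dendritic cells. Ccr9 binds the gut chemokine Ccl25, and its surface protein marks the mature cells of this lineage, while precursors that lack it can still turn into other dendritic cells.

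The study grew dendritic cells from wild-type C57BL/6 mice with the cytokine FLT3L and changed the supply of glutamine during differentiation. The control culture had 2 mM glutamine, the second had 50 µM glutamine, and the third had 2 mM glutamine with 1 µM DON (6-diazo-5-oxo-L-norleucine), a glutamine analogue that blocks enzymes using glutamine. Each condition was a single 10x Genomics 3′ v3 library, so no difference below has a replicate check and none was tested. Intervals cover counting error only, and both comparisons use the same control library.

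The 3 libraries held 87611658 to 92002827 UMIs in 8962 to 10497 barcodes. Members had a median of 5174 UMIs in control, 4729.5 at 50 µM and 5953 with DON, and summed to 6950823, 3188732 and 6285055 UMIs. Their median mitochondrial share was 4.53%, 5.20% and 4.90%. Between 20 and 31 barcode sequences were shared by each pair of libraries, and 0 of these were members in both. A doublet caller marked 117 members (9.95%) in control, 26 (4.26%) at 50 µM and 59 (6.19%) with DON. Values without marked barcodes are therefore given beside the results that turn on them. The caller's score threshold differed by library, at 0.204 in control, 0.262 at 50 µM and 0.233 with DON. Of simulated doublets, 63.41% in control, 51.28% at 50 µM and 54.96% with DON lay above it. Marking was thus not equally strict, and values without marked barcodes are not an even correction across libraries. The part of the unequal thresholds in those values was not tested.

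Plasmacytoid markers that the rule did not use were high in the members of all 3 libraries. Levels are given as CPM, the UMIs of a gene summed over the members of a library and scaled to a total of 1000000 UMIs. Pacsin1, an endocytic adaptor of plasmacytoid cells, was at 232 CPM in control (95% Poisson interval 221 to 244), 242 at 50 µM (226 to 260) and 224 with DON (212 to 236). In the barcodes of the same libraries with no Siglech UMI it was at 2.07, 2.04 and 2.19 CPM. Pltp, a phospholipid transfer protein, was at 333, 289 and 352 CPM in members against 9.58, 2.74 and 9.33 without Siglech. Lair1, an inhibitory collagen receptor, was at 479, 564 and 439 CPM against 13.8, 11.0 and 13.0. Besides Siglech and Ccr9, which the rule fixed, 10 plasmacytoid marker genes were checked, and each was higher in members than in barcodes without Siglech in every library. The difference was smallest for Cox6a2, a cytochrome oxidase subunit, at 50 µM glutamine. It stood at 899 CPM in members and 363 without Siglech in that library, but at 755 against 24.3 in control and 685 against 42.6 with DON.

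Near its thresholds the rule cut through a gradient. In control, the 74 members with exactly 3 Siglech UMIs had Pacsin1 at 167 CPM and Lair1 at 344 CPM. The 80 barcodes that missed the rule by 1 Siglech UMI had them at 122 and 293 CPM. The 141 control members with 1 Ccr9 UMI had Pacsin1 at 157 CPM, Pltp at 253 and Tlr7 at 44.2, below the 1035 members with 2 or more (242, 343 and 66.7). The 369 control barcodes with no Ccr9 UMI that met the rest of the rule had 73.9, 97.4 and 19.1 CPM. Barcodes of that last kind are called Ccr9-zero here.

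The members were a smaller share of the kept barcodes at 50 µM glutamine than in the other libraries. They made up 11.3% in control (1176 of 10367, exact binomial interval 10.7 to 12.0%), 6.32% at 50 µM (610 of 9649, 5.84 to 6.83%) and 10.7% with DON (953 of 8887, 10.1 to 11.4%). The 50 µM interval lay below both others, and those of control and DON overlapped. When every barcode was thinned to 3000 UMIs before the rule was applied, the shares were 12.1%, 7.05% and 11.5%. With at most 5% mitochondrial UMIs in place of 10% they were 8.82% (8.25 to 9.41%), 3.16% (2.78 to 3.58%) and 7.09% (6.52 to 7.71%), and the intervals of control and DON no longer overlapped.

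**Figure D1:**
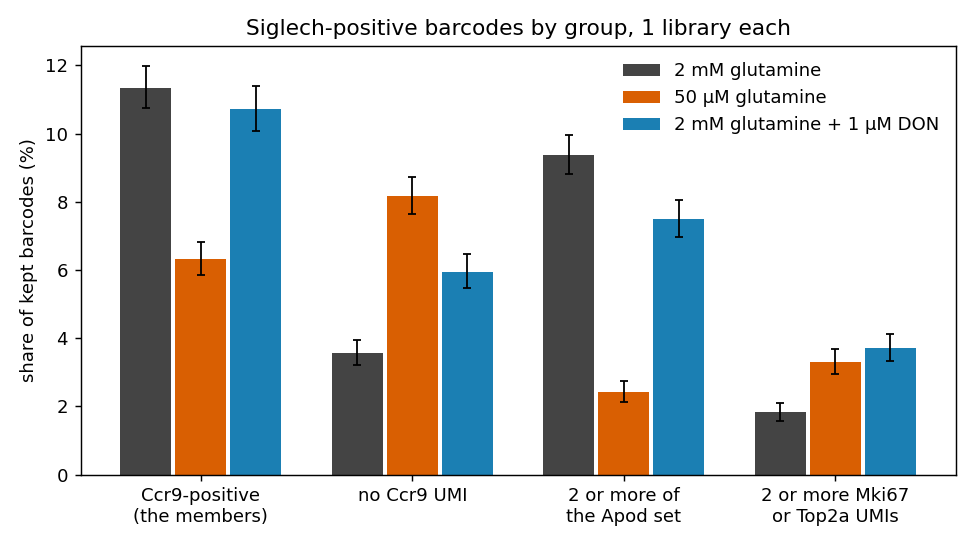
Share of kept barcodes (y axis, %) in 4 classes of Siglech-positive barcodes (x axis), with 1 bar per library and exact binomial 95% intervals. The 50 µM bar is lowest among Ccr9-positive members (6.32%) and Apod-set barcodes (2.43%) and highest among barcodes without a Ccr9 UMI (8.17%).

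Of the barcodes that missed the rule on 1 condition, those without a Ccr9 UMI and the cycling ones had another order among the libraries than members, and the Apod-set ones had the same order. Ccr9-zero barcodes were 3.56% of control (369), 8.17% of the 50 µM library (788) and 5.95% of the DON library (529). Of members and Ccr9-zero barcodes together, the Ccr9-positive part was 76.1% in control (73.9 to 78.2%), 43.6% at 50 µM (41.0 to 46.3%) and 64.3% with DON (61.8 to 66.7%). These 3 intervals did not overlap. Members had fewer UMIs than Ccr9-zero barcodes in each library, and after thinning to 3000 UMIs the Ccr9-positive part was 79.3%, 50.2% and 73.5%. Barcodes that failed only on the Apod set were 9.37%, 2.43% and 7.49% of kept barcodes. Those that failed only on Mki67 and Top2a were 1.83%, 3.30% and 3.70%.

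Within the members, the genes of the rule itself were not lowest where members were fewest. Siglech was at 1667 CPM in control, 2408 at 50 µM and 1682 with DON, and Ccr9 at 1260, 1720 and 1664 CPM. Both values follow a minimum set on the same genes and are descriptions only.

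Against Ccr9-zero barcodes of the same library, members had a distinct set of genes. That contrast is the one the rule made, so these levels describe the members and test nothing. In control, 125 of 5911 genes of at least 20 CPM (2.11%) stood 2-fold or more above the Ccr9-zero level in members and 109 (1.84%) as far below it. Timp2, an inhibitor of metalloproteinases, was at 87.0 CPM in control members and 11.9 in Ccr9-zero barcodes, with 90.0 against 7.17 at 50 µM and 71.1 against 5.34 with DON. Cd28, a costimulatory receptor, was at 88.6 against 18.7, 104 against 38.5 and 80.7 against 17.6 CPM. Havcr1, a phosphatidylserine receptor, was at 56.5 against 8.74, 55.8 against 12.5 and 53.1 against 10.4 CPM. Prkca, the protein kinase C alpha gene, was at 86.3 against 15.9 CPM in control. On the other side, Klf4, a factor of myeloid cells, was at 31.9 CPM in control members and 189 in Ccr9-zero barcodes. The interferon-induced membrane protein gene Ifitm3 was at 225 against 769 and S100a4, a calcium-binding protein gene, at 267 against 940 CPM. All 7 of these genes stood on the same side in the 3 libraries.

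At 50 µM glutamine, more genes stood past 2-fold in the members than with DON. The members summed to 3188732 UMIs at 50 µM and 6285055 with DON, so counting error was larger at 50 µM. The 2 treatments were not compared at equal depth, and the part of counting error in these counts was not tested. The log2 ratio used below is treated over control after adding 5 CPM to each level. It understates differences of genes near or under 5 CPM. Of 6076 genes of at least 20 CPM in 1 of the pair of libraries, 16 (0.263%) stood 2-fold or more above control at 50 µM and 44 (0.724%) 2-fold or more below it. With DON, 1 of 5718 genes (0.0175%) stood 2-fold or more above control and 13 (0.227%) as far below it. The median log2 ratio of all genes of at least 5 CPM was 0.13 at 50 µM and 0.03 with DON. Scaling by the median of ratios lowered every 50 µM ratio by 0.16 at high levels and gave 5 genes higher and 64 lower, so directions of ratios between 0 and that shift depend on the scaling. Without marked doublets the counts were 24 higher and 34 lower at 50 µM, and 0 higher and 9 lower with DON.

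The 8 genes with the highest ratios at 50 µM, among those of at least 50 CPM, had varied roles. Nfkbid, an atypical inhibitor of NF-kB, was at 27.6 CPM in control (23.9 to 31.8), 86.6 at 50 µM (76.6 to 97.4) and 42.2 with DON (37.2 to 47.6), log2 ratios of 1.49 and 0.53. The 3 intervals were apart, with DON between the others. Fnip2, a partner of folliculin in nutrient sensing, was at 29.5, 85.9 and 44.7 CPM (1.40 and 0.53). Tns1, the focal adhesion protein tensin, was at 54.0, 130 and 73.5 CPM (1.20 and 0.41), and the anion transporter gene Slco4a1 at 28.2, 67.1 and 36.9 CPM (1.12 and 0.34). In Ccr9-zero barcodes the 50 µM ratios of these 4 genes were 0.80, 0.27, 0.39 and 0.68. The growth factor receptor gene Igf1r had a ratio of 1.10 at 50 µM and -0.13 with DON. Cdk6, a kinase of the G1 phase, had 1.09 and 0.07.

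**Figure D2:**
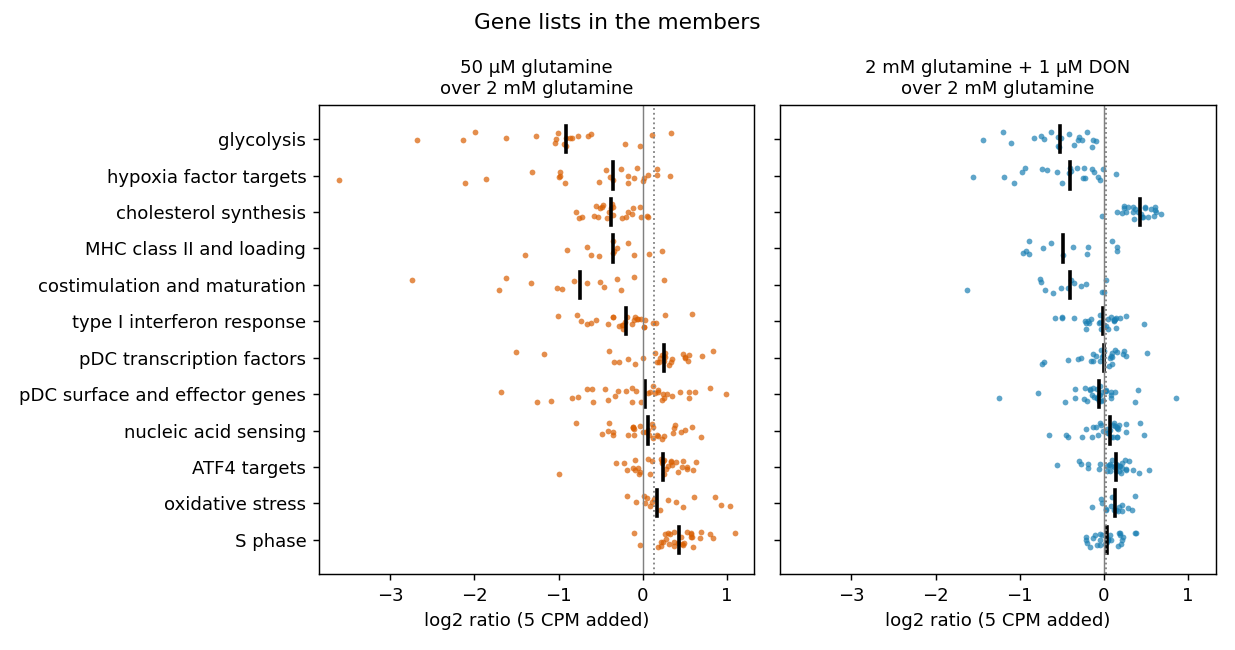
Log2 ratio (x axis, 5 CPM added) of each measured gene of 12 lists (y axis) in the members, at 50 µM glutamine (left) and with DON (right) over the same control. Black bars are list medians, and the dotted line is the median of all genes (0.13 and 0.03). Glycolysis lies left of the line in both panels (medians -0.92 and -0.52), and cholesterol synthesis lies left at 50 µM (-0.37) and right with DON (0.43).

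Of 27 measured transcription factors, 2 were at least 1.5-fold higher and 2 lower at 50 µM, with a median log2 ratio of 0.25. Over all 9280 genes of at least 5 CPM, 4.09% were at least 1.5-fold higher and 2.5% lower. Tcf4 was at 1653 CPM in control (1623 to 1683), 1969 at 50 µM (1921 to 2019) and 1616 with DON (1585 to 1648). The control and DON intervals overlapped and the 50 µM one lay above both. Spib was at 214, 351 and 253 CPM (0.70 and 0.24), Runx2 at 548, 777 and 586 (0.50 and 0.10), and Irf8 at 2704, 3219 and 2826 CPM (0.25 and 0.06). Under median-of-ratios scaling the 50 µM ratios of Tcf4, Irf8, Spib and Runx2 were 0.09, 0.09, 0.54 and 0.34, and the list's median was 0.09. Myb, a factor of progenitors, was the other gene past 1.5-fold, at 43.7, 82.2 and 46.8 CPM (0.84 and 0.09). Zeb2 had ratios of 0.48 and 0.13, and Bcl11a 0.26 and 0.09. Id2 and Batf3, a factor of type 1 conventional cells, were the 2 lower genes. Id2 was at 111 CPM in control, 36.1 at 50 µM and 65.9 with DON (-1.50 and -0.71), and without marked doublets its ratios were -0.56 and -0.10. Batf3 was at 12.7, 2.82 and 5.57 CPM, and its ratios of -1.17 and -0.74 became -0.13 and 0.12 without marked doublets. In control 77.6% of the Id2 UMIs lay in marked doublets. With DON the list had 0 of 26 genes higher, 2 lower (Id2 and Batf3) and a median of 0.00, beside 0.309% and 1.05% of all 9054 genes.

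Of 31 genes of nucleic acid sensing, 1 was at least 1.5-fold higher at 50 µM and 1 lower, shares near the 4.09% and 2.5% of all genes. The higher gene, Tlr7, was at 64.0 CPM in control (58.2 to 70.3), 106 at 50 µM (95.3 to 118) and 66.3 with DON (60.1 to 73.0). After each member was thinned to 2000 UMIs, 12.4% of control members, 21.6% at 50 µM and 12.5% with DON had a Tlr7 UMI, against 0.877%, 1.67% and 1.38% of barcodes without Siglech. Slc15a4, a transporter that Tlr7 and Tlr9 signalling needs, was at 74.7, 108 and 83.5 CPM (0.50 and 0.15). Unc93b1, which carries these receptors to endosomes, was at 608, 561 and 551 CPM (-0.12 and -0.14). Tlr9 was at 3.17, 2.20 and 3.02 CPM with overlapping intervals. Irf7, the factor that drives interferon genes, was at 133, 99.1 and 128 CPM (-0.40 and -0.05). The list's median was 0.06 at 50 µM, where 2 genes were higher and 0 lower without marked doublets. With DON 0 of 31 were higher and 1 lower (0.07). The lower gene in both was Tlr3, the sensor of double-stranded RNA, at 5.32, 0.941 and 1.59 CPM. Its ratios were -0.80 and -0.65, but -0.10 and 0.05 without marked doublets.

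Surface and effector genes of plasmacytoid cells split at 50 µM glutamine. Of 34 measured, 3 were at least 1.5-fold higher and 8 lower, with a median of 0.02, beside 4.09% and 2.5% of all genes. Fcrla, an Fc receptor-like protein (chromosome 1, 170917576 to 170927583, minus strand, GRCm38), was at 76.5 CPM in control (70.2 to 83.3), 20.4 at 50 µM (15.7 to 26) and 67.5 with DON (61.2 to 74.2). The 50 µM level was lowest with a log2 ratio of -1.68, and control and DON overlapped (-0.17). Upb1, an enzyme of pyrimidine breakdown, was at 137, 61.8 and 119 CPM (-1.09 and -0.20). In Ccr9-zero barcodes the 50 µM ratio of Fcrla was -0.48 from a control level of 17.1 CPM, and that of Upb1 -0.86 from 73.9 CPM. Klk1, a kallikrein, was lower in both, at 30.2, 18.2 and 15.4 CPM (-0.60 and -0.79). Ly6c2, a surface antigen, was at 404, 267 and 346 CPM (-0.59 and -0.22). The 3 higher genes were Tex2, a lipid transfer protein gene (158, 317 and 204 CPM, 0.99 and 0.37), Lag3, an inhibitory receptor (23.5, 44.5 and 17.3 CPM, 0.80 and -0.35), and Dntt, the template-free DNA polymerase of lymphoid cells (18.4, 31.0 and 11.9 CPM, 0.62 and -0.47). Bst2, an antiviral membrane protein, was at 3326, 3054 and 3519 CPM, and Ly6d at 2927, 3321 and 2847. With DON, 1 of 33 genes was higher and 2 lower (median -0.06), beside 0.309% and 1.05% of all genes. The higher gene was Mzb1, a chaperone of antibody-secreting cells, at 13.1 and 27.8 CPM (0.86), which stood at -0.64 without marked doublets. Klk1 and Gzmb, the granzyme B gene, were the 2 lower.

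**Figure D3:**
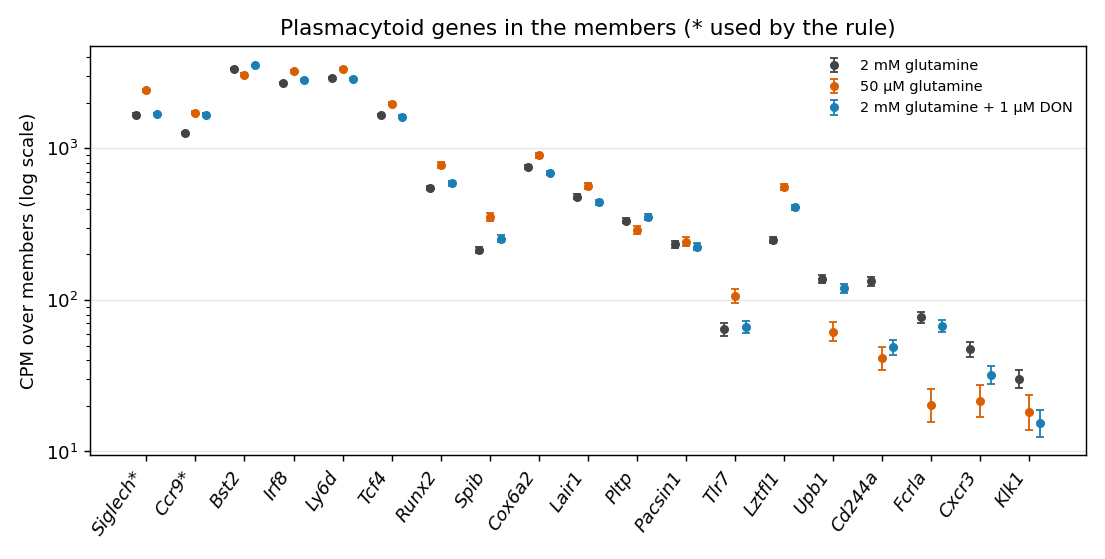
CPM over the members (y axis, log scale) of 19 plasmacytoid genes (x axis) per library, with exact Poisson 95% intervals. Siglech and Ccr9 were used by the rule. Fcrla is lowest at 50 µM (20.4 CPM), Cd244a is low in both treated libraries (41.4 and 48.7 against 133 CPM), and Lztfl1 is high in both (553 and 409 against 247 CPM).

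Cd244a, a receptor of the SLAM family (chromosome 1, 171559193 to 171609746, plus strand), was lower with both treatments. It was at 133 CPM in control (124 to 142), 41.4 at 50 µM (34.6 to 49.1) and 48.7 with DON (43.4 to 54.5). The 2 treated intervals overlapped and lay below control, with log2 ratios of -1.57 and -1.36. After thinning, 20.7%, 6.77% and 8.39% of members had a Cd244a UMI, against 14.5%, 11.2% and 12.8% of barcodes without Siglech. Ccr9-zero barcodes had ratios of -0.93 and -0.54, Apod-set barcodes -1.45 and -0.83, and barcodes without Siglech -0.58 and -0.34. Cxcr3, a chemokine receptor for inflamed tissue, was at 47.2 CPM in control (42.2 to 52.6), 21.6 at 50 µM (16.8 to 27.4) and 32.0 with DON (27.7 to 36.7) (-0.97 and -0.50), and its 3 intervals were apart. Gpr183, an oxysterol receptor, was at 41.3, 18.8 and 31.3 CPM (-0.96 and -0.35). The integrin gene Itga4 was the only one of 21 measured chemokine receptor and adhesion genes at least 1.5-fold higher at 50 µM (99, 153 and 89.4 CPM, 0.61 and -0.14), and 3 were lower (Ccr7, Cxcr3 and Gpr183). Over all genes, 4.09% were higher and 2.5% lower.

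Lztfl1, a gene of ciliary protein transport, was among the 8 highest genes with both treatments. It was at 247 CPM in control, 553 at 50 µM and 409 with DON (1.14 and 0.71), and 58.9%, 78.2% and 80.2% of members held a UMI of it before thinning. It lies on the minus strand of chromosome 9 (123694416 to 123717697), inside the annotated span of Ccr9 on the plus strand (123678439 to 123784330). The sources used here do not state how strand entered the counting, so UMIs of the 2 genes cannot be told apart. Lztfl1 is therefore not independent of the rule. In Ccr9-zero barcodes it was at 126, 164 and 125 CPM, and in barcodes without Siglech at 27.8, 35.5 and 35.5 CPM. The nearest genes on each side of Ccr9 with at least 20 CPM in control members, Sacm1l and Fyco1, had log2 ratios of 0.42 and 0.43 at 50 µM and 0.14 and -0.09 with DON.

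Genes of glycolysis were lower in the members of both treated libraries. Glycolysis turns glucose into pyruvate, and hypoxia-inducible factors drive most of its genes as well as those for angiogenesis and for oxygen sensing itself. At 50 µM, 16 of 20 measured glycolytic genes were at least 1.5-fold lower and 0 higher, with a median log2 ratio of -0.92. With DON, 7 of 20 were lower and 0 higher (-0.52). Over all genes, 2.5% were at least 1.5-fold lower at 50 µM and 1.05% with DON. The list was also lower at 50 µM in Ccr9-zero barcodes (median -1.0) and in barcodes without Siglech (-0.65), and with DON in both (-0.41 and -0.28).

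Pgk1, phosphoglycerate kinase, was at 400 CPM in control (385 to 415), 87.2 at 50 µM (77.2 to 98.1) and 242 with DON (230 to 254). The 3 intervals were apart, with log2 ratios of -2.13 and -0.71, and 49.4%, 14.9% and 32.7% of thinned members had a Pgk1 UMI. Tpi1, triosephosphate isomerase, was at 147, 33.2 and 51.1 CPM (-1.99 and -1.44). Aldoc, an aldolase, was at 47.2, 3.14 and 26.1 CPM (-2.68 and -0.75), and the lactate exporter Slc16a3 at 13.4, 0.941 and 3.02 CPM (-1.63 and -1.20). Among the most abundant enzymes, Gapdh was at 1313, 635 and 1056 CPM (-1.04 and -0.31), Pkm, pyruvate kinase, at 465, 190 and 321 (-1.27 and -0.53), and Ldha, lactate dehydrogenase, at 283, 156 and 197 CPM (-0.84 and -0.51). For Pfkl, a phosphofructokinase, and Pgam1, phosphoglycerate mutase, the treated libraries were close. Pfkl was at 41.1, 20.4 and 16.4 CPM, and Pgam1 at 204, 118 and 112 CPM. The hexokinase gene Hk1 was at 14.8, 20.1 and 13.5 CPM and the glucose transporter gene Slc2a3 at 35.7, 34.8 and 31.8 CPM, with overlapping intervals for each gene.

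Other targets of hypoxia-inducible factors were lower as well. Of 23 measured at 50 µM, 8 were at least 1.5-fold lower and 0 higher (median -0.36). With DON, 7 of 22 were lower and 0 higher (-0.40). The shares of all genes as far below control were 2.5% at 50 µM and 1.05% with DON. Ankrd37, an ankyrin repeat protein gene (chromosome 8, 45996902 to 46005707, minus strand), was at 102 CPM in control (94.8 to 110), 3.76 at 50 µM (1.94 to 6.57) and 31.5 with DON (27.3 to 36.2). Its 3 intervals were apart, and its log2 ratio of -3.61 at 50 µM was the lowest of all genes of at least 50 CPM that the naming rule covers. Without added CPM the ratio's interval was -5.72 to -3.95. The 12 Ankrd37 UMIs of the 50 µM library came from 10 of 610 members, while 364 of 1176 control members and 131 of 953 DON members held one. Mif, a cytokine, was at 612, 138 and 381 CPM (-2.11 and -0.68). Egln3, a prolyl hydroxylase that marks the factors for destruction, was at 30.2, 4.70 and 10.5 CPM (-1.86 and -1.18), and the collagen prolyl hydroxylase gene P4ha1 at 55.8, 19.4 and 26.7 CPM (-1.32 and -0.94). Pdk1, a kinase that inhibits pyruvate dehydrogenase, was at 38.4, 17.9 and 15.8 CPM, and Bnip3, a mitophagy receptor, at 29.1, 12.2 and 12.4 CPM. For both, the treated intervals overlapped. Not all targets were lower. Bnip3l was at 153, 172 and 169 CPM, Plin2 at 29.5, 27.9 and 29.1, and Car9 at 4.17, 5.33 and 4.77 CPM.

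**Figure D4:**
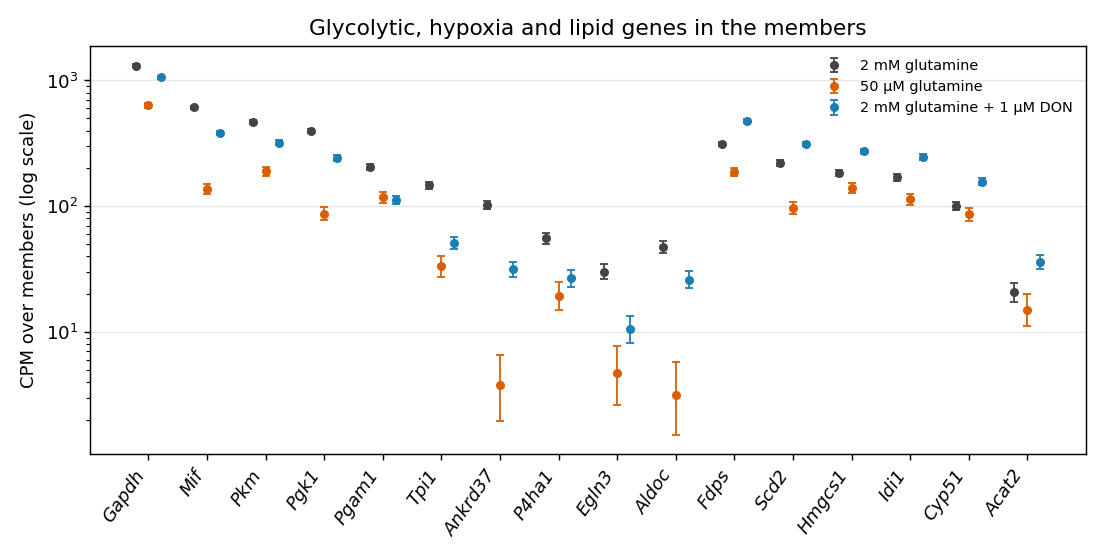
CPM over the members (y axis, log scale) of 16 metabolic genes (x axis) per library, with exact Poisson 95% intervals. From Gapdh to Aldoc the 2 mM glutamine point is highest, and Ankrd37 stands at 3.76 CPM at 50 µM. From Fdps to Acat2 the DON point is highest, with Fdps at 480 CPM against 313 in control.

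Promoters are shown for 4 of the genes that were lower in both treated libraries, to set windows with several matches of a motif beside 1 without. The 250 bases before the RefSeq transcription start (GRCm38.p6) were searched on both strands for ACGTG or GCGTG, the core that hypoxia-inducible factors bind, with overlapping matches counted. A match was found in 38.6% of 27025 mouse promoters of that length, in 17 of the 22 glycolysis promoters matched by symbol and in 19 of the 23 promoters of the other targets. The promoters searched were 1 per gene symbol, with 1 chromosome left out. Both cores contain CG, and the 27025 promoters were not matched to the lists for base composition or expression. The other targets were listed as targets of these factors, so their share is not independent of the motif. The difference in shares was not tested. In the lines below, read 5′ to 3′ on the gene's strand, capitals mark the matches. Ankrd37 (chr8:45999851-46000100, minus strand) had 4 matches, P4ha1 (chr10:59323046-59323295, plus strand) 3, Pgk1 (chrX:106186850-106187099, plus strand) 2, and Mif (chr10:75860278-75860527, minus strand) 0.
Ankrd37: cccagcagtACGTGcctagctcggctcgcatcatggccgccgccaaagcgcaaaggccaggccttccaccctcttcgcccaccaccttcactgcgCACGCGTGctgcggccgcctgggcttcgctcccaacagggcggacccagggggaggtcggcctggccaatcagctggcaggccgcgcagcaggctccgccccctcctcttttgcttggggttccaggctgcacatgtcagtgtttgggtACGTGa
P4ha1: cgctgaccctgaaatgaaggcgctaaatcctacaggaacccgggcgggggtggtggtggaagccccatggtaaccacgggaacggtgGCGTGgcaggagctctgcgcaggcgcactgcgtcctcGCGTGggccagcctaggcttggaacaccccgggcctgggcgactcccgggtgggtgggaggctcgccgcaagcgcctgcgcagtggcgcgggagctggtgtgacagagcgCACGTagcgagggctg
Pgk1: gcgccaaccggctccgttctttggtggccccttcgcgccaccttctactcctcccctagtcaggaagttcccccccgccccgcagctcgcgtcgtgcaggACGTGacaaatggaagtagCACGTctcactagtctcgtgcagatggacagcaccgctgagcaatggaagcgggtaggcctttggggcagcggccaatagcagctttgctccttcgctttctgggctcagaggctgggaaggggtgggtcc
Mif: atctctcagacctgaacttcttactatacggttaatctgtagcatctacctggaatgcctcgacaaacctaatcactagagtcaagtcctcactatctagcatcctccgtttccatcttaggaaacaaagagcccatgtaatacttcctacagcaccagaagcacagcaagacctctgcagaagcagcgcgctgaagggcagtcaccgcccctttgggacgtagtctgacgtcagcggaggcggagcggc
The match nearest the start lay 6 bases before it in Ankrd37, 16 in P4ha1 and 131 in Pgk1, counted from the first base of the match. Tpi1 also had 0 matches in its window and Egln3 had 1. A match is a string of letters and not a measured binding site.

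Genes of cholesterol synthesis went opposite ways in the treated libraries. This pathway builds sterols from acetyl-CoA, and its genes share the control of the sterol-sensing factor Srebf2. With DON, 5 of 24 measured genes were at least 1.5-fold higher, beside 0.309% of all genes, and 0 lower. Their median log2 ratio was 0.43. At 50 µM, 0 were higher and 3 lower (-0.37), beside 2.5% of all genes lower. With DON, 23 of 24 ratios were above 0, and at 50 µM 22 of 24 were below 0. Fdps, farnesyl diphosphate synthase, was at 313 CPM in control (300 to 326), 187 at 50 µM (173 to 203) and 480 with DON (463 to 497). Its 3 intervals were apart, with log2 ratios of -0.72 and 0.61. Hmgcs1, the first committed synthase, was at 183, 140 and 273 CPM (-0.38 and 0.56), Idi1, an isomerase, at 169, 114 and 246 (-0.56 and 0.52), and Mvk, mevalonate kinase, at 22.2, 10.7 and 36.1 CPM (-0.79 and 0.60). Cyp51, a demethylase of the sterol ring, was at 100 CPM in control (92.7 to 108) and 86.6 at 50 µM (76.6 to 97.4), which overlapped, and at 157 with DON (147 to 167). Acat2, an acetyl-CoA acetyltransferase, was at 20.7, 15.1 and 36.3 CPM (-0.36 and 0.68). Srebf2 itself was at 128, 134 and 143 CPM (0.07 and 0.16). Aacs, which makes acetoacetyl-CoA for sterols, was at 31.1, 28.9 and 51.6 CPM (0.65 with DON). The list's median was 0.28 with DON in Ccr9-zero barcodes and 0.23 in those without Siglech, and -0.24 and -0.37 at 50 µM.

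Scd2, a desaturase of fatty acids, had the same order as Fdps, at 220, 97.5 and 312 CPM (-1.13 and 0.50). It and the elongase gene Elovl6 were the 2 of 17 fatty acid synthesis genes at least 1.5-fold lower at 50 µM (median 0.03), beside 2.5% of all genes. With DON none of 16 was past 1.5-fold (0.18), and Fasn, fatty acid synthase, was at 33.4, 37.3 and 49.6 CPM. A sterol response element, TCACNCCAC on either strand, was found in 1.04% of the 27025 promoters and in 1 of 17 cholesterol synthesis promoters matched by symbol. That promoter, of Hmgcs1 (chr13:119690101-119690350, plus strand), is shown with the match in capitals, 137 bases before the start.
Hmgcs1: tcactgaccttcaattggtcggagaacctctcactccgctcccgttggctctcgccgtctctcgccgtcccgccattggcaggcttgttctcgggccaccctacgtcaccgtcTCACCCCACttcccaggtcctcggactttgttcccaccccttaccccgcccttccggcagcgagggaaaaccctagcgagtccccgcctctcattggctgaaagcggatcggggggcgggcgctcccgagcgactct

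MHC class II genes were lower in the members with DON. Class II molecules present peptides to CD4 T cells, with Cd74 as their chaperone and the H2-DM proteins as peptide editors. With DON, 6 of 13 measured genes were at least 1.5-fold lower and 0 higher (median -0.48). At 50 µM, 4 were lower and 0 higher (-0.35). Over all genes, 1.05% were as far below control with DON and 2.5% at 50 µM. The list was also lower outside the members. In Ccr9-zero barcodes its median was -0.31 with DON and -0.66 at 50 µM. In barcodes without Siglech it was -0.52 and -1.25. H2-Ab1 was at 1530 CPM in control (1501 to 1559), 1200 at 50 µM (1162 to 1238) and 820 with DON (798 to 843), log2 ratios of -0.35 and -0.90. The 3 intervals were apart, with DON lowest. After thinning, 74.4% of control members, 72.4% at 50 µM and 54.0% with DON had an H2-Ab1 UMI. H2-Eb1 was at 1030, 717 and 552 CPM (-0.52 and -0.89), H2-Aa at 2039, 1602 and 1230 (-0.35 and -0.73), and Cd74 at 6192, 4837 and 3999 CPM (-0.36 and -0.63). Without marked doublets, which held 39.0% of control H2-Ab1 UMIs, the DON ratios of H2-Ab1, H2-Eb1, H2-Aa and Cd74 were -0.69, -0.63, -0.58 and -0.50. Their 50 µM ratios were then -0.02, -0.09, -0.06 and -0.15. The list's median without doublets was -0.45 with DON and -0.11 at 50 µM. Ciita, the class II activator, was at 99.7, 117 and 76.1 CPM (0.22 and -0.37). Ifi30, a reductase that opens disulphides in antigens, was lower at 50 µM alone, at 168, 60.5 and 147 CPM (-1.40 and -0.18), with the same 50 µM value of -1.40 without doublets. Class I genes had 0 of 19 past 1.5-fold with either treatment (medians -0.13 and -0.12).

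Genes of dendritic cell maturation were lower in the members of both treated libraries, with much of their UMIs in few barcodes. At 50 µM, 8 of 14 measured were at least 1.5-fold lower (median -0.74), and with DON 5 of 14 (-0.41). Over all genes, 2.5% and 1.05% were as far below control. Ccr7, which guides mature cells to lymph nodes, was at 56.0, 14.7 and 31.0 CPM (-1.63 and -0.76), and marked doublets held 83.3%, 61.7% and 81.0% of its UMIs. Ccl5, a chemokine that attracts T cells, was at 342, 46.7 and 108 CPM (-2.75 and -1.62), with 82.5%, 87.9% and 94.4% of UMIs in 10 members. Without marked doublets 5 of the list's genes were lower at 50 µM and 1 with DON, and the medians were -0.28 and -0.16. The summed level of the 6 mature dendritic cell markers was 172, 53.6 and 139 CPM in all members and 47.8, 21.5 and 31.4 CPM without marked doublets. Cells caught in 1 droplet with a member and expression by the member itself cannot be told apart for these genes.

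**Figure D5:**
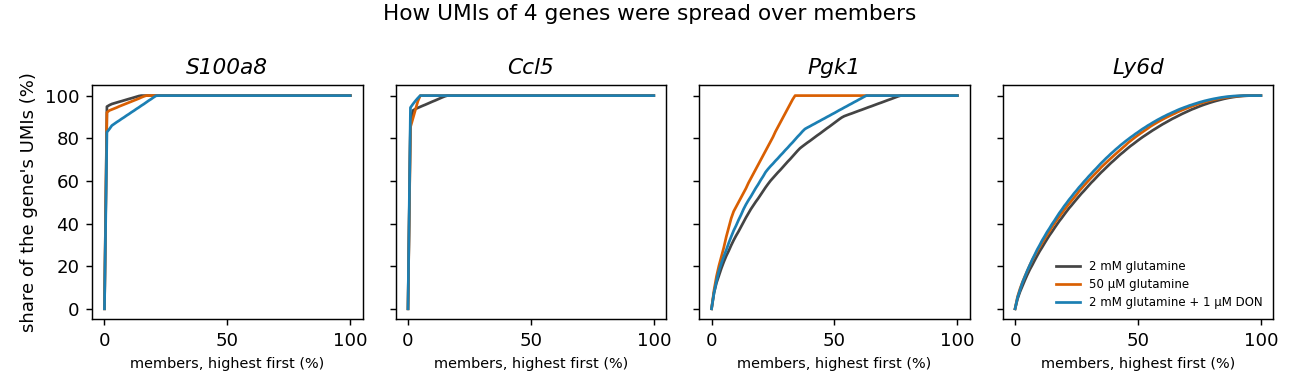
Cumulative share of a gene's UMIs (y axis, %) against the share of members, ordered from the member with most UMIs (x axis, %), for 4 genes and 3 libraries. S100a8 and Ccl5 climb almost upright, with over 82% of UMIs in 10 members, whereas Pgk1 and Ly6d spread over many members.

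Neutrophil transcripts had the same shape. S100a8 was at 501, 409 and 196 CPM, and 94.5%, 92.7% and 82.8% of its UMIs lay in 10 members. The 7 neutrophil markers summed to 1225, 1091 and 517 CPM in members, and to 94.2, 672 and 99 CPM without marked doublets, so the 50 µM library kept the most. Markers of 8 further types were summed in the same way. B lineage markers summed to 18.6 to 28.2 CPM, erythroid ones to 0.796 to 6.90 CPM, basophil or mast cell ones to 1.91 to 12.5 CPM, and progenitor ones to 22.4 to 65.2 CPM. Type 1 conventional markers summed to 165, 122 and 130 CPM, type 2 to 227, 197 and 182, and monocyte or macrophage markers to 599, 586 and 527 CPM, of which Ccr2 made up 388, 424 and 351. The T, NK and innate lymphoid markers summed to 240, 232 and 188 CPM, nearly all from the interleukin 7 receptor gene Il7r (237, 232 and 186 CPM), with Cd3e at 0 in control and at 50 µM. The part of these transcripts in other results was not tested beyond the values without marked doublets.

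Genes of antioxidant defence were higher at 50 µM in a few members of the list. Of 16 measured, 4 were at least 1.5-fold higher and 0 lower (median 0.17), beside 4.09% and 2.5% of all genes. With DON 0 were past 1.5-fold (0.13). Txnrd1, thioredoxin reductase, was at 25.6 CPM in control (22 to 29.7), 57.7 at 50 µM (49.7 to 66.7) and 34.5 with DON (30.1 to 39.4), log2 ratios of 1.03 and 0.37. Gsr, glutathione reductase, was at 23, 48.6 and 23.5 CPM (0.94 and 0.03). Gclc, the limiting enzyme of glutathione synthesis, was at 19.1, 38.9 and 22.9 CPM (0.86 and 0.21). Ftl1, a ferritin chain, was at 2959, 4533 and 3618 CPM (0.61 and 0.29).

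Replication genes were somewhat higher in the members at 50 µM. The rule left out barcodes with 2 or more UMIs of Mki67 and Top2a and used no other cycling gene, so members could still include cycling cells. Of Siglech- and Ccr9-positive barcodes outside the Apod set, 13.9% in control, 34.3% at 50 µM and 25.7% with DON were left out this way. Of 30 measured S phase genes, 7 were at least 1.5-fold higher, beside 4.09% of all genes, and 0 lower. Their median was 0.44, against 0.13 for all genes. With DON 0 of 28 were past 1.5-fold (0.04). Mcm5, a subunit of the replicative helicase, was at 12.8 CPM in control (10.3 to 15.8), 32.9 at 50 µM (26.9 to 39.9) and 15.9 with DON (12.9 to 19.4). After thinning, 1.79%, 5.28% and 2.52% of members had an Mcm5 UMI. Mcm3 was at 26.8, 46.4 and 26.3 CPM and the DNA ligase gene Lig1 at 9.64, 20.4 and 9.23 CPM. The median in Ccr9-zero barcodes was 0.35 at 50 µM, and in barcodes without Siglech 0.64. Of survival genes, Bcl2, which blocks apoptosis, was at 30.8, 58.6 and 38.3 CPM (0.83 and 0.28), and Bcl2l11, which promotes it, at 24.9, 55.2 and 32.6 CPM (1.01 and 0.33). They were the 2 of 18 survival and death genes at least 1.5-fold higher at 50 µM, beside 4.09% of all genes. The lower one was Bcl2a1b, which blocks apoptosis, at 21.3, 4.39 and 16.5 CPM (-1.49 and -0.29), and its ratios were -0.28 and 0.32 without marked doublets.

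Targets of Atf4, the factor that cells use when amino acids run short, had 2 of 32 measured genes at least 1.5-fold higher and 1 lower at 50 µM. Over all genes, 4.09% were higher and 2.5% lower. The list's median was 0.24 in members, 0.15 in Ccr9-zero barcodes and 0.81 in barcodes without Siglech. Without marked doublets 0 of its genes were higher and 1 lower in members, with a median of 0.20. The 2 higher among all members were Shmt2, a mitochondrial enzyme of serine use (10.8, 19.4 and 13.4 CPM), and Slc7a1, an arginine transporter (14.2, 24.1 and 19.4 CPM). Asns, which makes asparagine from glutamine, was at 0.575 CPM in control (0.157 to 1.47), 2.82 at 50 µM (1.29 to 5.36) and 0.477 with DON (0.0984 to 1.39), from 4, 9 and 3 UMIs. With DON 0 of 32 was past 1.5-fold, and the medians in the same order were 0.14, -0.02 and 0.09. Of genes for glutamine uptake and use, Gclc was the 1 of 19 past 1.5-fold at 50 µM, beside 4.09% of all genes higher, and none of 17 was with DON. The glutamine transporter gene Slc38a1 was at 218, 323 and 226 CPM (0.56 and 0.05).

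Interferon response genes had 5 of 28 at least 1.5-fold lower at 50 µM and 0 higher (median -0.20), beside 2.5% of all genes lower, and 0 past 1.5-fold with DON (-0.02). Without marked doublets 4 were lower and 1 higher at 50 µM, with a median of -0.07. Ly6a, the Sca-1 antigen, was at 2441 CPM in control (2404 to 2478), 1543 at 50 µM (1500 to 1587) and 2203 with DON (2166 to 2240), log2 ratios of -0.66 and -0.15. Its 3 intervals were apart. Ifitm3 was at 225, 133 and 194 CPM (-0.74 and -0.21), and Isg20, a ribonuclease, at 19.7, 9.41 and 16.4 CPM (-0.78 and -0.21). Stat2, which carries the signal, had ratios of 0.01 and 0.05. The 13 respiratory genes of the mitochondrial genome all had ratios above 0 at 50 µM (median 0.28, beside 0.13 for all genes) and 12 of 13 with DON (0.12, beside 0.03), with none past 1.5-fold. Lists of secretory pathway genes (medians 0.01 and 0.07), purine synthesis (0.18 and 0.06) p53 targets (0.09 and -0.05) and receptors for cytokines and growth factors (0.09 and -0.06) had 0 genes past 1.5-fold with either treatment. For the lists that follow, the shares over all genes were 4.09% higher and 2.5% lower at 50 µM, and 0.309% and 1.05% with DON. Counts of 1 or 2 genes therefore say little about a list. Of 17 NF-kB and inflammatory genes, 3 were higher and 2 lower at 50 µM (0.20, or 0.30 without marked doublets) and 1 higher with DON (-0.06). Of 20 genes of G2 and mitosis, 2 were higher and 1 lower at 50 µM (0.18), and 1 of 17 was higher with DON (0.28, or 0.17 without marked doublets). In pyrimidine synthesis 1 of 16 genes was higher at 50 µM (0.26) and 0 of 14 with DON (0.02). Immediate early genes had 0 of 10 past 1.5-fold at 50 µM (-0.13) and 1 of 11 lower with DON (-0.17).

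Members were more even in most identity genes than in neutrophil and maturation genes. The variance of thinned counts divided by their mean, which is 1 for counting noise alone, was in control 1.39 for Bst2, 1.43 for Tcf4, 1.19 for Pacsin1, 1.17 for Pltp and 1.20 for Lair1. For Bst2, Tcf4, Pacsin1, Pltp and Lair1 it was 1.5, 1.59, 1.26, 1.32 and 1.12 at 50 µM and 1.60, 1.46, 1.07, 1.24 and 1.20 with DON. Ly6d, at 5.19, 5.20 and 5.88 in the 3 libraries, was the most uneven of the plasmacytoid markers tabulated here, and 90.5%, 89.6% and 85.5% of thinned members had a Ly6d UMI against 5.55%, 10.1% and 9.46% without Siglech. S100a8 had ratios of 102, 106 and 74.1 and Ccl5 31.3, 17.2 and 13.1. For Mif the ratio was 1.17, 0.936 and 1.48, and for Pgk1 1.36, 0.932 and 1.38.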

How the data were processed

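Gene counts are the raw UMI counts the authors deposited per barcode, made with Cell Ranger against mm10 per the submitters' processing notes. The notes give version 3.1.0 and the file headers 6.0.0, and which made the files is not settled. The annotation and the use of strand are not given in the sources used here, and coordinates come from a GENCODE annotation of the same build. The members and gene lists were chosen with earlier results of these data known. UMIs were summed over the members of each library and divided by their total (CPM). With 1 library per group there was no test. Intervals are exact Poisson (CPM), Clopper-Pearson (shares) and conditional binomial (ratios) at 95%. Named genes were the 8 highest and 8 lowest ratios per treatment of at least 50 CPM, up to 4 per list, the 8 at each end against Ccr9-zero barcodes, the 8 with most spread and a fixed set; others named were chosen after their values were seen. Lists held 634 genes, of which 3 were not in the matrix, and a gene entered at 5 CPM or more in 1 of the pair of libraries. Doublets were marked with Scrublet in scanpy 1.11.5 (expected rate 0.08), which marked 8.62%, 4.97% and 5.85% of kept barcodes, and were not removed from the rule. Thinning drew 2000 UMIs per cell (3000 for the rule), leaving out shallower cells. Python 3.11.15, numpy 2.4.6, scipy 1.17.1 and pandas 2.3.3 were used. The counting of ratios was tested on simulated Poisson counts, which have no spread among cells, doublets or library effect. That test covers the arithmetic only and not the numbers of genes counted here.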

Additional observations from a re-analysis of the deposited data

Results flagged for a closer look

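Neutrophil genes in the DON library had opposite signs in members and in Ccr9-zero barcodes. S100a8 had a log2 ratio of -1.33 in members and 1.85 in Ccr9-zero barcodes, S100a9 -1.19 and 1.78, and Ngp -1.13 and 1.63. With 1 library per condition the difference was not tested, and 82.8% to 94.5% of S100a8 UMIs lay in 10 members of each library. Igkc, an immunoglobulin light chain gene of a class left out of the named genes, had a log2 ratio of 4.48 with DON in members and 0.85 in Ccr9-zero barcodes. Of its 1920 UMIs in the DON members, 1840 lay in 1 member, and 96.2% lay in marked doublets. The DON ratio in members thus rests almost wholly on 1 barcode.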

How the results depend on the processing

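No paired analysis was possible because each condition was 1 library, and for the same reason no library could be left out. Member shares (control, 50 µM and DON) were 9.94%, 5.97% and 9.59% with 5 or more Siglech UMIs, 9.98%, 5.38% and 9.44% with 2 or more Ccr9 UMIs, 12.1%, 7.05% and 11.5% after thinning to 3000 UMIs, 8.82%, 3.16% and 7.09% at up to 5% mitochondrial UMIs, and 11.2%, 6.37% and 10.7% without marked doublets. Among members with under 3 UMIs of neutrophil genes, mature dendritic cell genes and Ccl5, a limit chosen after seeing the data as was that of 8000 UMIs, they were 10.5%, 6.03% and 9.91%. The 50 µM share was lowest in each. Genes 2-fold higher and lower at 50 µM numbered 28 and 62 with 1 CPM added, 4 and 22 with 20 CPM, 5 and 64 under median-of-ratios scaling, 21 and 62 with no minimum level, 10 and 24 from 50 CPM, and 24 and 34 without marked doublets. With DON the same settings gave 2 and 21, 1 and 7, 1 and 13, 3 and 20, 1 and 7, and 0 and 9. Thinning to 3000 UMIs gave 2 and 11 with DON, members of at most 8000 UMIs 0 and 15, and members with few neutrophil and mature cell UMIs 0 and 11. The DON ratio of Mzb1 was -0.022 with every member weighing the same, -0.61 after thinning, -0.64 without doublets, -0.65 at up to 8000 UMIs and -0.55 with few neutrophil and mature cell UMIs. Without doublets the DON ratios of Batf3 and Tlr3 were 0.12 and 0.047, and at up to 8000 UMIs the 50 µM ratio of Tlr3 was 0.0014. The maturation list at 50 µM had a median of 0.036 with few neutrophil and mature cell UMIs. Ccr7, Fscn1, Ccl22, Socs2 and Ccl5 belong both to that list and to the genes of this limit. The value of 0.036 is therefore not independent of the limit. The causes of these changes of sign were not tested. In control, 50 µM and DON members, marked doublets held 77.6%, 51.3% and 61.8% of Id2 UMIs. For Ccr7 the shares were 83.3%, 61.7% and 81.0%. Counting depth limits genes near 5 CPM, which rest on few UMIs.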
